A study of Mus musculus with 9 samples.

Results

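Forebrain neurons are told apart in part by the neuropeptides they make, and 10 neuropeptide genes (Sst, Npy, Vip, Cck, Tac1, Penk, Cort, Pdyn, Crh and Nts) were followed in ventricular zone cells of newborn mice that carry or lack Prdm16, a gene for a zinc-finger transcriptional regulator of neural stem cells. They were taken by gene symbol, with the brightest probe set standing for a gene, and all 10 were found among the 19938 genes that an array measured through a probe set with a single symbol. The list was chosen by function with the KO minus WT log2 differences of Sst and Npy on these arrays already known, so the members' values in that comparison are given as a description and carry no test. The KO group was Prdm16LacZ/LacZ, the HET group Prdm16LacZ/+ and the WT group Prdm16+/+, each with 3 arrays. All mice were newborn and of the C57BL/Ka strain, and the tissue was dissected from the brain and put into Trizol without culture or treatment. The LacZ allele is carried by every cell of the KO and HET animals and not by a chosen cell type, as far as the genotypes in the labels tell. The labels do not say how many animals an array stands for. Nor do they say whether arrays of a genotype came from separate animals, so a p-value speaks to how these arrays vary. The log2 level of Xist was 4.42, 10.50 and 11.002 in KO, 10.73, 4.64 and 4.99 in HET and 10.04, 4.44 and 4.70 in WT. Each genotype thus held arrays high and low in Xist, unevenly, so its 3 arrays were not all repeats of 1 sample. Part of the spread could still be technical, which was not tested.

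Neuropeptides are made as long precursors, cut by prohormone convertases, stored in dense-core vesicles and released on to G protein-coupled receptors. In the forebrain, somatostatin (Sst) and neuropeptide Y (Npy) mark inhibitory interneurons born in the ganglionic eminences, and the same cell can make both. Substance P (from Tac1) with dynorphin (from Pdyn), and enkephalin (from Penk), mark separate classes of projection neuron in the striatum. Vasoactive intestinal peptide (Vip), cholecystokinin (Cck), cortistatin (Cort) and corticotropin-releasing hormone (Crh) are made by further neurons of the cortex and hippocampus, and neurotensin (Nts) by neurons of the hypothalamus, amygdala and other areas.

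The Sst gene lies at chr16:23889573-23891342, the Npy gene at chr6:49822710-49829507, the Tac1 gene at chr6:7555061-7562978 and the Penk gene at chr4:4133536-4138815 of the mouse build GRCm38.p6. The promoters of Sst and Npy are printed because these members differed most between KO and WT, and that of Tac1 because it varied most between arrays. Each runs from 250 bases before a start in the RefSeq promoter table to 50 bases after it (GRCm38.p6), 5′ to 3′ on the gene's strand, at chr16:23890795-23891094 (minus strand) for Sst, chr6:49822460-49822759 (plus strand) for Npy and chr6:7554811-7555110 (plus strand) for Tac1. For Npy and Tac1 this start is the first base of the gene as placed above. For Sst it is base 23890844, which lies 498 bases inside the upstream limit of the gene record, a record that covers more than a single transcript, so the Sst window falls within the gene as placed above. Capitals mark the cyclic AMP response element TGACGTCA, for which the Sst promoter is the textbook example, or its core TGACG, which reads CGTCA on the opposite strand.
Sst: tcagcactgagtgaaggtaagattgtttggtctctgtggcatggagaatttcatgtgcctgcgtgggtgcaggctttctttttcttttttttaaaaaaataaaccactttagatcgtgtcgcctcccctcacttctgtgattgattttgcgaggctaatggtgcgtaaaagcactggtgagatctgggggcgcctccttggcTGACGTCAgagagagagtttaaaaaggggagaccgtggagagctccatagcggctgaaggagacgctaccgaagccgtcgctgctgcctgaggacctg
Npy: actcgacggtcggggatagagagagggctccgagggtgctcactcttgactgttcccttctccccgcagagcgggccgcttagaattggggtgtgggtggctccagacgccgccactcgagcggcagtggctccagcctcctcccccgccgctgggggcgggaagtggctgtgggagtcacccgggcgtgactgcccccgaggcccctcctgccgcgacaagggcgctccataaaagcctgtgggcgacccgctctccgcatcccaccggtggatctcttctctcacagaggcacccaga
Tac1: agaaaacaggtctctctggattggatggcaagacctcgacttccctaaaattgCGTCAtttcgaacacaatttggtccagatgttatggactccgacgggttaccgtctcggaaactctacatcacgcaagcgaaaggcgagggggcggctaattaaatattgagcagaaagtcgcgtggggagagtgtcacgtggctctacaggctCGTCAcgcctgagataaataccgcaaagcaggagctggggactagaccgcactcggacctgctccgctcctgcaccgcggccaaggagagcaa
The full element was found in the Sst promoter, beginning 48 bases before the start that the promoter table gives, and it is its own reverse complement, so it holds the core on both strands. The Tac1 promoter held CGTCA beginning 197 and 43 bases before the start, and the Npy window held neither string. Among 32851 promoters of the same length in the RefSeq table, 1.79% held the full element and 20.8% held the core on either strand. Of the 10 members, 8 had a promoter in the table, with the full element in 1 (Sst) and the core in 6 (Sst, Vip, Cck, Tac1, Cort and Nts).

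The values are log2 intensities after robust multi-array averaging, and array medians lay between 5.80 and 5.92. The lower quartile of an array, between 4.53 and 4.68, is used here to say where a probe set was dim. Prdm16 itself read 5.69, 6.41 and 6.17 in KO, 7.00, 7.34 and 7.00 in HET and 7.62, 7.57 and 7.23 in WT, a KO minus WT difference of -1.38 with a standard error (SE) of 0.18 (limma, Benjamini-Hochberg adjusted p = 0.0102), so the measured order followed the labels by group mean. No 2 arrays held identical values, and correlations between arrays over all genes ran from 0.987 to 0.996. Over all genes, 90 (0.451%) passed an adjusted p of 0.05 between KO and WT, 0 between HET and WT and 41 between KO and HET. Among the members, Vip, Cck and Crh lay below the lower quartile on all 9 arrays, Nts on 7 and Tac1 on 4, and the remaining 5 lay above it on every array.

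Somatostatin and neuropeptide Y were higher in KO than in WT, each by more than 2-fold, with no overlap between the groups. Sst read 9.05, 8.78 and 8.76 in KO, 7.83, 7.79 and 9.04 in HET and 7.18, 7.35 and 7.45 in WT. The KO arrays lay close together above every WT array, and HET replicate 3 stood with them while the other HET arrays stood between. The KO minus WT difference in Sst was 1.53 (SE 0.27, 95% confidence interval 0.92 to 2.14), which is 2.90-fold. Npy read 9.40, 8.51 and 8.76 in KO, 8.22, 7.85 and 8.13 in HET and 7.51, 7.69 and 7.65 in WT. Every KO array was above every HET array, and every HET array above every WT array. The KO minus WT difference in Npy was 1.27 (SE 0.19, 95% confidence interval 0.84 to 1.70), which is 2.42-fold. Means were 8.86 ± 0.17 in KO, 8.22 ± 0.71 in HET and 7.33 ± 0.14 in WT for Sst (SD, n = 3 each). For Npy they were 8.89 ± 0.46 in KO, 8.07 ± 0.19 in HET and 7.62 ± 0.099 in WT (SD, n = 3 each). In bulk tissue, a larger share of cells that make a peptide and more of its mRNA in a cell cannot be told apart, and this holds for each result here.

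**Figure D1:**
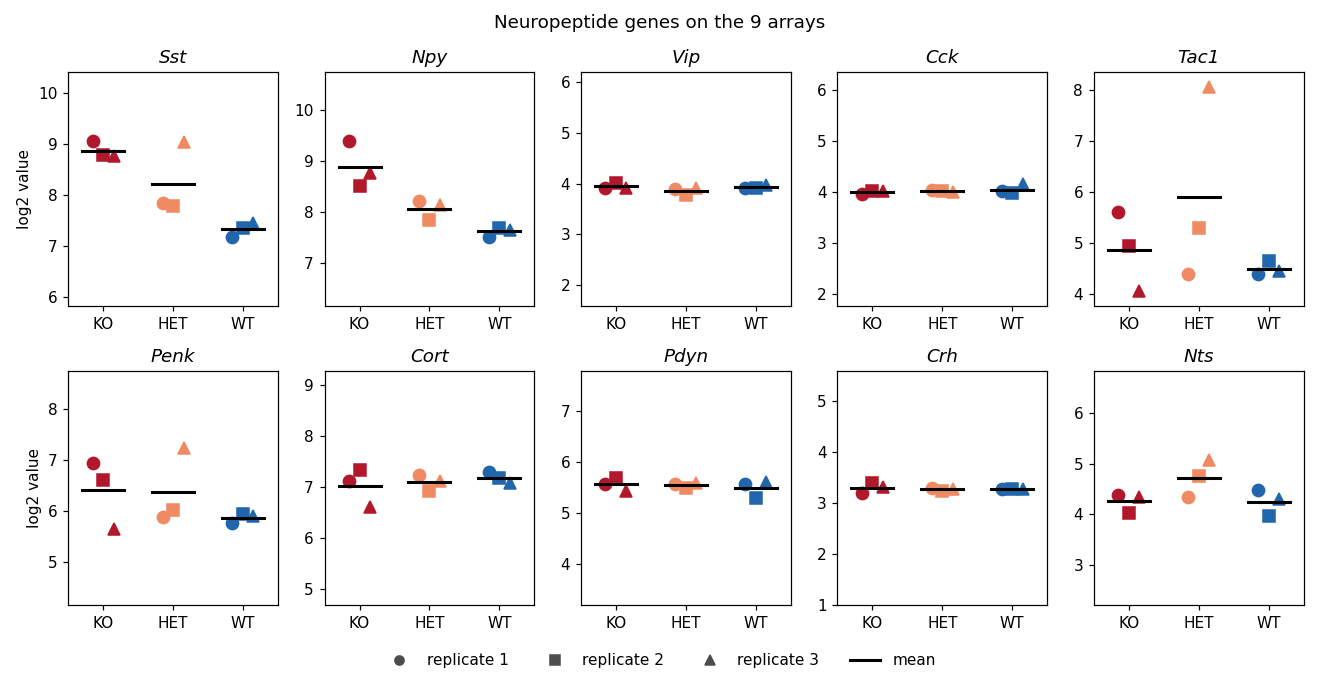
Log2 level of each of the 10 neuropeptide genes on every array, with KO left, HET in the middle and WT right; points are arrays and bars are group means. The 3 KO arrays of Sst lie between 8.76 and 9.05, above the 3 WT arrays, and HET replicate 3 stands apart in Sst, Tac1 and Penk.

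Between KO and WT, 2 members, Sst and Npy, passed the test, against 0.451% of all genes. The same 2 had every KO array above every WT array, against 5.63% of all genes. Both counts rest on the contrast used to choose the members, so nothing is read from them. The median KO minus WT difference of the 10 members was 0.05, beside 0.0064 over all genes. The next largest differences belonged to Penk (0.53, SE 0.37) and Tac1 (0.37, SE 0.75), whose KO and WT arrays overlapped. Without KO replicate 1 these were 0.26 for Penk and 0.0043 for Tac1, and without KO replicate 3 they were 0.91 for Penk and 0.78 for Tac1. The Sst difference passed the adjusted threshold in 8 of 20 alternative settings and the Npy difference in 15, with the values ranging from 1.44 to 1.66 for Sst and from 1.02 to 1.50 for Npy. For Sst the call was lost on leaving out any single array other than HET replicate 3. For Npy it was lost without KO replicate 3 and without any 1 of the 3 WT arrays. These counts over settings rest on the same contrast. They describe how the calls depend on the settings and lend them no support.

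With a single working allele, Sst and Npy lay between the other genotypes by group mean. None of the 10 members passed the adjusted threshold between HET and WT (limma), where 0.00% of all genes did. At an unadjusted p under 0.05 there were 3 members (Sst, Npy and Nts), against 4.05% of all genes. The comparison shares its WT arrays with that of KO and WT, so its values are given beside those above and not as separate support. The HET minus WT difference in Sst was 0.90 (95% confidence interval 0.29 to 1.51, adjusted p = 0.993), 58.5% of the KO minus WT difference. Without HET replicate 3 it was 0.49, or 31.7%. For Npy the difference was 0.45 (95% confidence interval 0.02 to 0.88, adjusted p = 0.993), 35.3% of the KO minus WT difference, and without HET replicate 3 it was 32.8%. In both genes every HET array was above every WT array, a separation that 3.75% of all genes showed upward.

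Between KO and HET, again 0 of the 10 members passed the adjusted threshold (limma), against 0.206% of all genes, and 3 (Sst, Npy and Nts) had an unadjusted p under 0.05, against 6.16%. Npy was 1.77-fold higher in KO by point estimate (log2 difference 0.82, SE 0.19, adjusted p = 0.254), with all KO arrays above all HET arrays, which 3.45% of all genes showed upward. The KO minus HET difference in Sst was 0.64 (95% confidence interval 0.03 to 1.25, adjusted p = 0.792), and the groups overlapped through HET replicate 3. The Sst difference passed in 1 of 20 alternative settings. Without HET replicate 3, the array whose high Sst value makes the overlap, it was 1.05 (adjusted p = 0.0229), without HET replicate 1 it was 0.44 (adjusted p = 0.619) and without HET replicate 2 it was 0.42 (adjusted p = 0.969). These values share the KO arrays with the KO minus WT difference. Npy was the 1 member with all arrays in the order KO over HET over WT, an order found for 32 of all genes (0.160%), and since it includes the KO and WT arrays behind the choice of the list, nothing is read from this share.

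**Figure D2:**
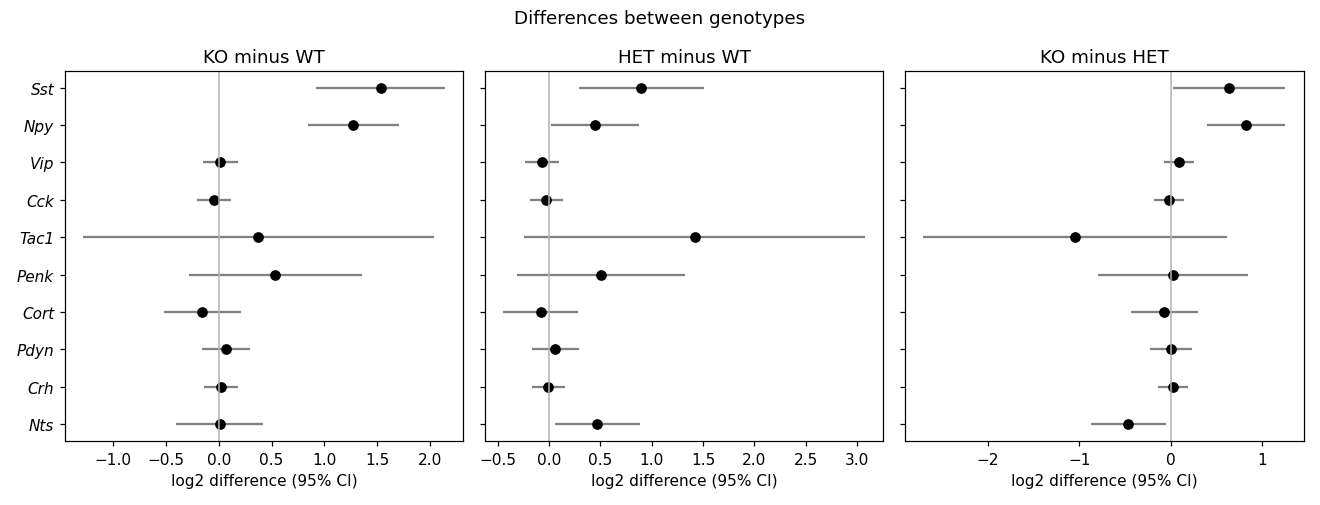
Log2 difference of each neuropeptide gene in KO minus WT, HET minus WT and KO minus HET, with limma's 95% confidence interval as the line. Sst (1.53) and Npy (1.27) stand to the right of 0 in KO minus WT, and Tac1 has the widest interval in each panel.

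For the striatal peptides Tac1 and Penk, the differences between genotype means were smaller than the SD of the HET arrays. Tac1 read 5.61, 4.94 and 4.06 in KO, 4.39, 5.29 and 8.07 in HET and 4.40, 4.65 and 4.45 in WT. HET replicate 3 lay 2.78 above the next HET array, and all WT arrays lay close together. Penk read 6.94, 6.60 and 5.65 in KO, 5.88, 6.005 and 7.23 in HET and 5.76, 5.94 and 5.89 in WT. Again HET replicate 3 was the highest HET array, by 1.23, and KO replicates 1 and 2 stood above every WT array while KO replicate 3 stood below them. The SD of Tac1 was 0.78 in KO, 1.9 in HET and 0.13 in WT, beside medians over all genes of 0.13 in KO, 0.12 in HET and 0.077 in WT. For Penk the SD was 0.67 in KO, 0.75 in HET and 0.090 in WT. The HET minus WT difference was 1.42 for Tac1 (SE 0.75, adjusted p = 0.993) and 0.51 for Penk (adjusted p = 0.993), and without HET replicate 3 these were 0.34 and 0.08. The KO minus HET difference was -1.04 for Tac1 (adjusted p = 0.873) and 0.03 for Penk (adjusted p = 0.996). Without HET replicate 3 the KO minus HET difference was 0.03 for Tac1 and 0.46 for Penk, so the sign of the Tac1 value rested on that array.

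HET replicate 3 was high in a small set of genes that includes 3 of the 10 members. Over all genes, 12 (0.0602%) exceeded both other HET arrays by more than 1 log2 unit on that array, and Sst, Tac1 and Penk were among them. The other 9 were Cdh9, Cdh18 and Pcdh17 (cadherin family adhesion genes), Gabra2 and Gabra5 (GABA-A receptor subunits), Rab3b (a vesicle GTPase), Scg2 (a dense-core vesicle granin), Trhr (the receptor of thyrotropin-releasing hormone) and Pcp4l1. On each of the other 8 arrays, 0 members stood out from the array's own group in this way, upward or downward. Npy did not share the pattern, with 8.13 on HET replicate 3 and 8.22 and 7.85 on the other HET arrays. This set was picked after its values were seen, and the part of tissue composition in it was not tested. Other arrays also stood apart over all genes. HET replicate 1 lay more than 1 log2 unit below both other HET arrays in 33 genes (0.166%), a larger count than the 12. KO replicate 3 lay as far below both other KO arrays in 15 genes (0.0752%).

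Pairs of members moved together in different ways across the 9 arrays, given here as a description since the arrays share genotypes. Sst and Npy had a Pearson r of 0.84 and a Spearman rho of 0.87, and r was 0.96 without the 2 arrays farthest from the median of Sst. Taken as deviations from the genotype means, their r was 0.34. Tac1 and Penk had an r of 0.86 and a rho of 0.97, with 0.65 after leaving out the 2 arrays farthest from the median of Tac1, and an r of 0.93 for deviations from the genotype means. Sst and Tac1 had an r of 0.54 and a rho of 0.50, with -0.02 without the 2 arrays farthest from the median of Sst, 0.38 without HET replicate 3 and 0.93 for deviations from the genotype means, where HET replicate 3 was high in both.

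The remaining members differed little or were dim. Vip read 3.91, 4.01 and 3.91 in KO, 3.89, 3.77 and 3.91 in HET and 3.91, 3.91 and 3.97 in WT, dim throughout. Cck, Crh and Vip had KO minus WT differences between -0.05 and 0.02, with 95% confidence intervals within -0.21 to 0.19, on probe sets near the bottom of the array where a difference could be compressed. Over all arrays these 3 probe sets read between 3.20 and 4.15. Cortistatin (Cort), a relative of somatostatin that binds the same receptors, read 7.13, 7.35 and 6.62 in KO, 7.25, 6.93 and 7.13 in HET and 7.29, 7.19 and 7.08 in WT. Its KO arrays straddled the WT arrays, with a KO minus WT difference of -0.15 (95% confidence interval -0.52 to 0.21), an interval that does not reach the Sst difference. Pdyn read 5.57, 5.68 and 5.42 in KO, 5.57, 5.49 and 5.59 in HET and 5.57, 5.29 and 5.61 in WT, with all groups overlapping (KO minus WT 0.07). Nts read 4.39, 4.03 and 4.35 in KO, 4.35, 4.75 and 5.06 in HET and 4.48, 3.97 and 4.29 in WT. Its HET arrays were the highest by mean, though they overlapped WT. The HET minus WT difference in Nts was 0.47 (95% confidence interval 0.06 to 0.88, adjusted p = 0.993), or 0.30 without HET replicate 3, and the KO minus HET difference was -0.46 (adjusted p = 0.757).

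The genes that make, release, receive and break down these peptides were followed as well, and 1 of 94 measured passed the test between KO and WT (1.06%, against 0.451% of all genes). That gene was Cadps2, which primes dense-core vesicles for release, with 5.01, 5.43 and 5.30 in KO, 4.61, 4.85 and 4.83 in HET and 4.70, 4.57 and 4.41 in WT. Every KO array was above every other array, although 3 of the 9 arrays read below the lower quartile. The KO minus WT difference in Cadps2 was 0.69 (SE 0.12, limma adjusted p = 0.0452). It passed in 6 of the 19 alternative settings that tested it (adjusted p from 0.0296 to 0.197), and leaving out any single array other than KO replicate 1 lost the call. The lists behind the 94 genes were chosen with earlier results of these data known, so the share of 1.06% is a description.

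Of 20 measured genes for peptide processing and dense-core vesicles, 12 had a higher mean in KO than in WT and 8 a lower one, with a median of 0.07. Beside Cadps2, the smallest unadjusted p-values belonged to the granin Scg3 (-0.34, adjusted p = 0.498), the convertase Furin (0.24, adjusted p = 0.521) and the convertase inhibitor Pcsk1n (0.26, adjusted p = 0.782). Of 27 receptors of the member peptides, 0 passed and 2 had an unadjusted p under 0.05 (limma; 6.15% of all genes did), and the median was -0.01. The pituitary adenylate cyclase-activating peptide receptor Adcyap1r1 read 8.46, 8.41 and 8.52 in KO and 8.81, 8.95 and 8.65 in WT, a difference of -0.34 (adjusted p = 0.642). Npy2r, a neuropeptide Y receptor, differed by 0.23 (adjusted p = 0.642) on a probe set below the lower quartile on all arrays. Sstr5, a somatostatin receptor, differed by -0.22 (adjusted p = 0.868), and Vipr2, a receptor of vasoactive intestinal peptide, by -0.26 (adjusted p = 0.857). Of 10 peptidases that break down neuropeptides, 0 passed and 1 had an unadjusted p under 0.05, Dpp4 (-0.22, adjusted p = 0.658). Of 37 measured genes for other neuropeptides, 0 passed and 1 had an unadjusted p under 0.05, the urocortin gene Ucn2 (-0.22, adjusted p = 0.742), with 15 higher in KO and 22 lower by mean. In HET against WT and in KO against HET, 0 of the 94 passed (limma). At an unadjusted p under 0.05 there were 5 (5.32%) and 6 (6.38%), against 4.05% and 6.16% of all genes.

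**Figure D3:**
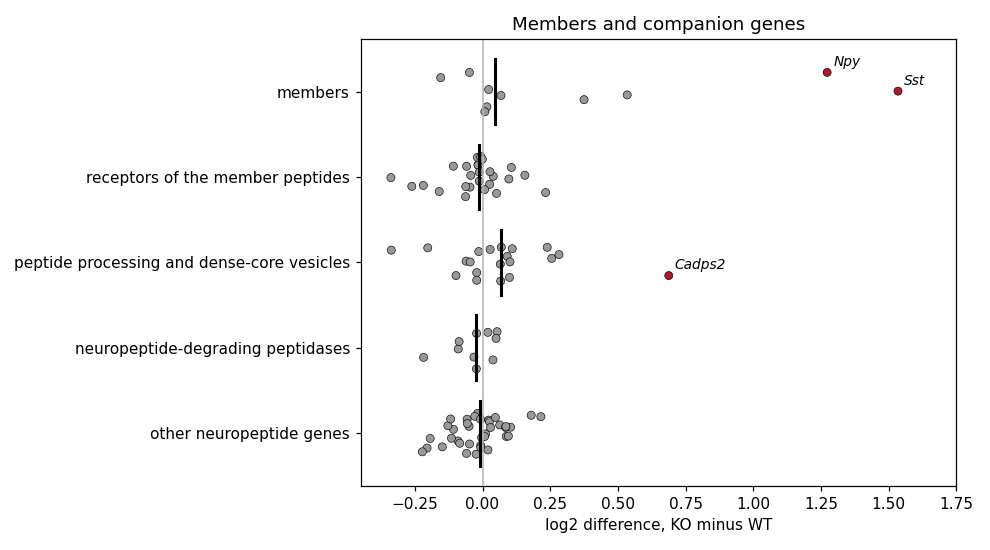
Log2 difference, KO minus WT, of each measured gene in the neuropeptide set and in the lists of receptors, processing genes, peptidases and other neuropeptides; each point is a gene, and the upright bar is the median of a list. Sst (1.53), Npy (1.27) and Cadps2 (0.69) are the genes that passed the adjusted threshold.

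Markers of neuron classes to which cells that make these peptides belong were set beside them. The interneuron list was broad and held Gad1, Gad2, Slc32a1 and Dlx genes. Its mean is thus not specific to cells that make Sst or Npy. The marker lists, here and below, were chosen with earlier results of these data known. Their counts and medians are thus given as a description. Of 26 measured interneuron markers, 22 had a higher mean in KO than in WT and 4 a lower one, against 52.6% of all genes higher. None passed (limma), and 8 had an unadjusted p under 0.05, against 6.15% of all genes. The median was 0.22, beside 0.0064 over all genes. The mean of these 26 genes lay between 7.36 and 7.44 in KO, between 7.12 and 7.27 in HET and between 7.09 and 7.20 in WT, so the KO arrays were above the others. Its leading members were Nr2f2, a transcription factor of the caudal ganglionic eminence (1.19, adjusted p = 0.0573), Erbb4, the neuregulin receptor of interneurons (0.81, adjusted p = 0.17), Lhx6, a factor of the medial ganglionic eminence (0.72, adjusted p = 0.224), and Cxcr4, a chemokine receptor of migrating interneurons (0.49, adjusted p = 0.367). The mature markers Pvalb and Calb2 were below the lower quartile on all arrays. HET replicate 3, where Sst was high, had the lowest interneuron mean of the HET arrays, at 7.12. Over the 9 arrays, the Pearson r of this mean with Sst was 0.64, and 0.96 without HET replicate 3. With Npy it was 0.89, and 0.94 without that array. These values are a description, since the arrays share genotypes. The part of interneuron content in the Sst and Npy differences was not tested.

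Of 14 measured striatal projection neuron markers, 3 had a higher mean in KO than in WT and 11 a lower one, against 52.6% of all genes higher. The median was -0.09, and 0 passed (limma). An unadjusted p under 0.05 was found for 3, against 6.15% of all genes. These 3 were Ebf1 (-0.83, adjusted p = 0.765), Isl1 (-0.58, adjusted p = 0.811) and Ikzf1 (-0.52, adjusted p = 0.757), transcription factors. Between KO and HET, 0 were higher in KO and 14 lower, 8 with an unadjusted p under 0.05, against 6.16% of all genes. The median was -0.33, beside 0.0029 over all genes. Between HET and WT, 13 were higher in HET and 1 lower, 2 with an unadjusted p under 0.05, against 4.05% of all genes. The median was 0.16, beside 0.0039 over all genes. None passed in either comparison, and all 3 comparisons share arrays. Their mean lay between 7.53 and 7.97 in KO, between 7.89 and 8.46 in HET and between 8.03 and 8.11 in WT. HET replicate 3, the array with the highest Tac1 and Penk, also had the highest striatal mean (8.46) and the highest mean of 13 pan-neuronal markers (9.42), though HET replicate 2 was close, at 8.38 and 9.34. Ebf1 read 8.89, 10.1 and 9.82 and Ikzf1 6.46, 7.06 and 6.97 on the HET arrays, highest on HET replicate 2. Isl1 read 8.83, 9.33 and 9.35 and Rarb 7.46, 8.97 and 9.48 on the HET arrays, highest on HET replicate 3. Rarb, a further marker of the list, had its lowest KO minus WT difference (-0.94, limma adjusted p = 0.829). KO replicate 3, the KO array with the lowest Tac1 and Penk, had the lowest striatal mean (7.53). The part of striatal or other neurons in the tissue was not tested.

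**Figure D4:**
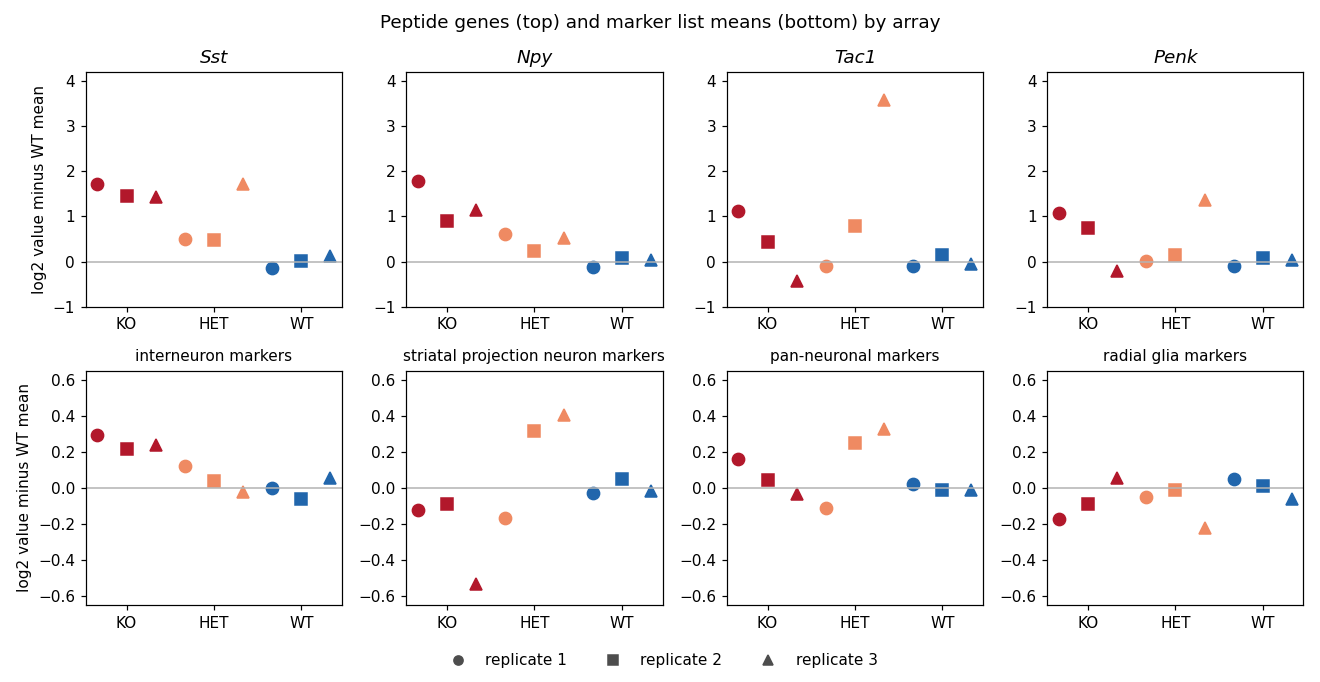
Log2 value minus the WT mean on each array, for Sst, Npy, Tac1 and Penk (top) and for the mean of the interneuron, striatal, pan-neuronal and radial glia markers (bottom, on a narrower axis), with KO arrays left, then HET, then WT and a symbol for each replicate. The interneuron mean is highest on the KO arrays (7.36 to 7.44 before the WT mean is taken off) and at 7.12 on HET replicate 3, where Sst, Tac1 and Penk are high.

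The other lists held no gene that passed in any comparison. Over all genes, 6.15% had an unadjusted p under 0.05 between KO and WT (limma). Of 10 measured excitatory cortical neuron markers, 3 had an unadjusted p under 0.05 between KO and WT, 5 were higher in KO by mean and 5 lower, and the median was -0.01. The 3 were the layer factor Tbr1 (-0.66, limma adjusted p = 0.0771), the glutamate transporter gene Slc17a6 (-0.45, adjusted p = 0.739) and the neuronal factor Neurod6 (0.28, adjusted p = 0.739), the last below the lower quartile on all 9 arrays. Of 13 pan-neuronal markers, 9 were higher in KO by mean, with a median of 0.07, and 1 had an unadjusted p under 0.05, the neurofilament gene Nefm (0.44, adjusted p = 0.247). Of 9 radial glia markers, which label the stem cells of the ventricular zone, 0 lay below the lower quartile on all 9 arrays. Their median was 0.01, and 2 had an unadjusted p under 0.05, Prom1 (-0.57, limma adjusted p = 0.372) and Pax6 (-0.41, adjusted p = 0.595). Markers of hypothalamus and thalamus (11 measured) had a median of 0.02, and those of choroid plexus (8 measured) a median of -0.02, with 0 of either at an unadjusted p under 0.05. The 12 factors and coactivators of the cyclic AMP response element had a median of 0.03, with 1 at an unadjusted p under 0.05, Crtc3 (-0.27, adjusted p = 0.795). The 11 immediate early genes had a median of 0.11 and 0 at an unadjusted p under 0.05.

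Likeness was sought among 504 genes whose highest and lowest array differed by at least 1 log2 unit, with predicted and clone genes passed over. Those whose levels most resembled Sst and Npy over the 9 arrays were named. For Sst they were Dpp10 (r = 0.955), a potassium channel auxiliary subunit, Lgi1 (0.926), a secreted synaptic protein, Sv2c (0.914), a synaptic vesicle protein, Prkcb (0.898), a protein kinase C, and Gabra2 (0.894), a GABA-A receptor subunit. For Npy they were Gatm (0.956), an enzyme of creatine synthesis, Nr2f1 (0.934), Has2 (0.933), a hyaluronan synthase, Nr2f2 (0.930) and Zdhhc2 (0.905), a palmitoyltransferase. Nr2f1 and Nr2f2 are related orphan nuclear receptors. The lists shared no gene. Without HET replicate 3 the values lay between 0.883 and 0.966 for the Sst list and between 0.922 and 0.964 for the Npy list, but other genes then ranked above some of them. Of the Sst list, Sv2c then ranked 4 and Dpp10 5, while Lgi1 (15), Gabra2 (20) and Prkcb (24) left the first 5, so the choice of these 3 rested on that array. Of the Npy list, Gatm (2), Nr2f2 (4) and Has2 (5) kept a place in the first 5, and Nr2f1 (6) and Zdhhc2 (7) did not. These are likenesses over arrays that share genotypes, and many of the genes differ between genotypes.

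**Figure D5:**
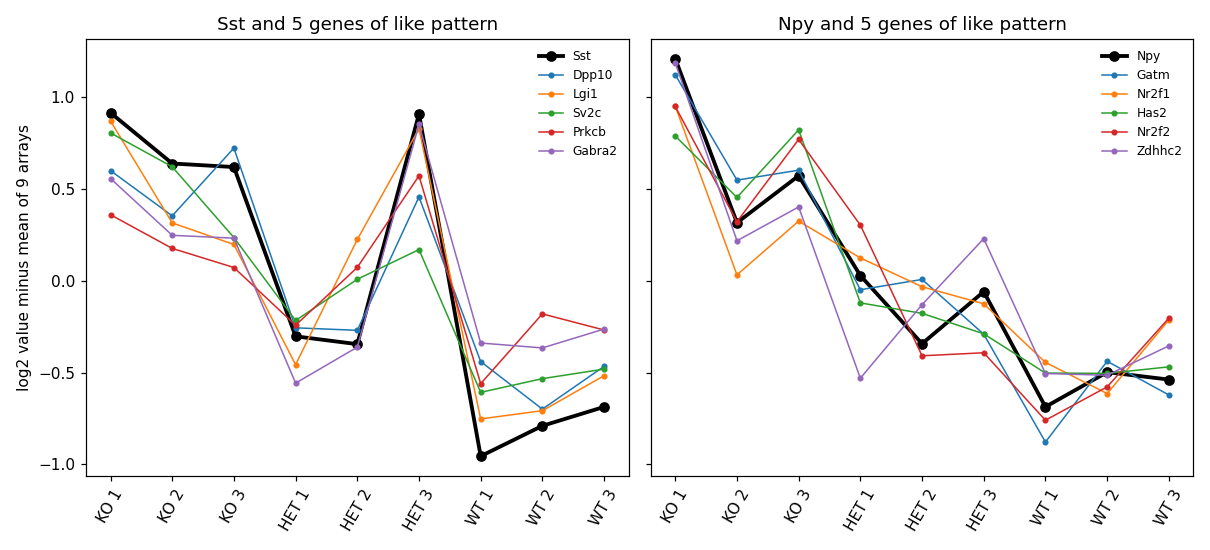
Log2 level on each array, minus the mean of the 9 arrays, of Sst with the 5 genes most like it and of Npy with the 5 genes most like it; KO arrays are left, then HET, then WT. Dpp10 (r = 0.955) and Gatm (r = 0.956) had the highest r with Sst and Npy over the 9 arrays, and ranked 5 and 2 without HET replicate 3.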

How the data were processed

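Total RNA from ventricular zone cells was amplified with a NuGEN kit and hybridised to Affymetrix Mouse Gene ST 1.0 arrays, per the labels' protocols. The log2 values deposited by the authors were made with RMA (robust multi-array averaging), and affy and limma are also named, per the submitters' processing notes; versions are not given in the sources used here. The table held 28940 probe sets. Of these, 21789 carried 1 gene symbol and were used; 1621 carried several and 5530 were unnamed. For the 999 genes with several probe sets the one with the highest mean was kept, leaving 19938 genes.

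The values were not normalized again. One mean per genotype was fitted to all 9 arrays with limma 3.58.1 (R 4.3.3; lmFit and eBayes), with Benjamini-Hochberg adjustment over all genes and calls at an adjusted p under 0.05. To check the code, the fit was run on simulated data with shifts set in 200 genes. The simulated noise was normal with the same SD in each genotype, unlike these arrays, so that run lends the calls no support. Group comparisons were KO minus WT, HET minus WT and KO minus HET. The members and gene lists were chosen with earlier results of these data known. Genes named from a list were those called in any comparison plus up to 4 ranked by the unadjusted p of KO minus WT, of which the text gives some; for Sst and Npy, the 5 with the highest Pearson r. Promoter windows and gene positions came from RefSeq (GRCm38.p6), and 21698 of the probe sets matched its gene IDs. The number of arrays limits the precision. Alternatives changed the model, filter, probe set rule, scaling and arrays included.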

Additional observations from a re-analysis of the deposited data

How the results depend on the processing

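Across 20 alternative settings no called difference of a member changed sign. The members' differences moved by less than the spread between arrays in 194 of 195 values for KO against WT. For HET against WT it was 193 of 195 and for KO against HET 195 of 195. Settings that refit the same values of both groups could not move a difference, so these counts do not measure stability. The spread is the mean SD of the 2 groups, so a variable gene could move far within it. In KO against HET, Tac1 ranged from -1.84 to 0.03 and Penk from -0.32 to 0.46. Tac1 in HET against WT ranged from 0.34 to 2.18 and Penk from 0.08 to 0.76, both lowest without HET replicate 3. Counts of calls moved more, and apart from fewer arrays or genes in a fit the cause was not tested. Between KO and WT the count was 90 genes, 2 members and 1 companion gene (receptors, processing, peptidases and other neuropeptides). With the arrays of the 2 groups alone it was 33 genes, 1 member and 0 companion genes. With array weights 151 genes were called. Without HET replicate 1 and KO replicate 2 together it was 50 genes, 1 member and 0 companion genes. Of the pairs across genotypes, these 2 arrays had the highest correlation of deviations from the genotype means (0.31). Both read high in Xist (10.7 and 10.5). Median centring and testing every probe set each left 1 member. Companion calls were 0 with median centring, with the Xist level as a covariate and with the dimmest genes left out. Leaving out each array in turn gave 23 to 77 genes, 0 to 2 members and 0 to 1 companion genes. Between KO and HET 41 genes were called, against 8 with those arrays alone, 24 with median centring and 24 with the Xist covariate, and 12 to 75 genes and 0 to 1 members on leaving out each array. Between HET and WT the count was 0 in each setting. The replicate numbers were checked as a pairing. Same-numbered arrays had correlations of deviations from -0.34 to 0.06 (9 pairs), other arrays from -0.16 to 0.31 (18 pairs). Same-numbered arrays were thus no more alike than others, though with 3 arrays per genotype a pairing could be missed. With the replicate number as a block, 72 genes, 1 member and 0 companion genes were called between KO and WT and 19 genes between KO and HET. Vip, Cck and Crh were dim on all arrays, where a difference could be missed.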
